A study of Mus musculus with 6 samples.

Results

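Bipolar cells are the interneurons that carry the photoreceptor signal to the inner retina, and 9 genes known for them were followed here through light damage and minocycline treatment. The genes were chosen by name, as the rows Grm6, Trpm1, Gng13, Pcp2, Prkca, Cabp5, Isl1, Vsx1 and Grik1 among 23420 genes of the deposited count table, and all 9 were found. RNA of whole mouse retinas was sequenced in 6 libraries, 2 per group. Control retinas came from untreated mice. Light-exposed retinas were taken 4 days after 1 h of bright light, and minocycline-treated retinas came from mice that had received the same light and the tetracycline minocycline at 45 mg/kg. The sample labels name the strain CD1, 10000 lux and minocycline for 4 days, whereas the methods of the paper name albino BALB/cJ mice of both sexes, 10 to 14 weeks old, 15000 lux after 16 h of darkness, and a first injection on the day before light. No vehicle is named for the control or the light-exposed libraries, so the drug and its injection cannot be told apart. Replicates are described as biological, but how many animals gave each library is not stated, and p-values measure the spread between these libraries. The minocycline columns of the count table share a header, so they could not be tied to a numbered sample and are told apart as minocycline A and B.

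In the dark, photoreceptors release glutamate. ON bipolar cells sense it with the metabotropic receptor mGluR6 (Grm6), which acts through the G protein Go to close the cation channel TRPM1. Light lowers glutamate and the channel opens. OFF bipolar cells instead carry ionotropic AMPA and kainate receptors, which glutamate opens directly. Rod bipolar cells are ON cells that serve the rods and are recognised by protein kinase C alpha (Prkca), and cone bipolar cells comprise both ON and OFF types. Because the RNA came from whole retina, a change in the number of bipolar cells and a change in RNA per cell cannot be told apart.

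The libraries held 15205930 to 22856922 counts. Each of the 9 genes was read in every library, from 140 counts for Vsx1 in control 2 to 15665 counts for Trpm1 in light-exposed 2, and all passed the filter on low counts. Values are given as CPM, counts scaled to a library total of 1000000 after adjustment of the totals with the TMM method, and changes as log2 fold changes ± SE. Changes were tested with the quasi-likelihood test of edgeR between 2 libraries and 2 libraries, and p was adjusted by the Benjamini-Hochberg method over all genes tested. More Xist than Y-linked RNA was read in 1 library, control 1. The summed rod genes (12 genes) lay between 90643 and 115296 CPM in control, between 47934 and 67428 CPM in light-exposed and between 97128 and 105954 CPM in minocycline-treated retinas.

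Light exposure was followed by higher levels of 4 of the 9 bipolar cell genes, Trpm1, Vsx1, Isl1 and Pcp2, and by a lower level of none. Among all 14349 genes tested, 7.52% were called higher and 3.8% lower. All 9 genes had a log2 fold change above 0 (8 with a scaling to other inner neurons), compared with 50.2% of all genes, and 7 of the 9 were higher at an unadjusted p under 0.05, compared with 16.5% of all genes. The median log2 fold change was 0.57 over the 9 genes and 0.00 over all genes. In 8 of the 9 genes both light-exposed libraries lay above both control libraries, which held for 30.1% of all genes. The exception was Gng13. The study also asked for a log2 fold change of 2 or more, and this stricter cutoff was met upwards by 2.89% of all genes and by 0 of the 9. The log2 fold change of Vsx1, the largest of them, was 1.16.

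**Figure D1:**
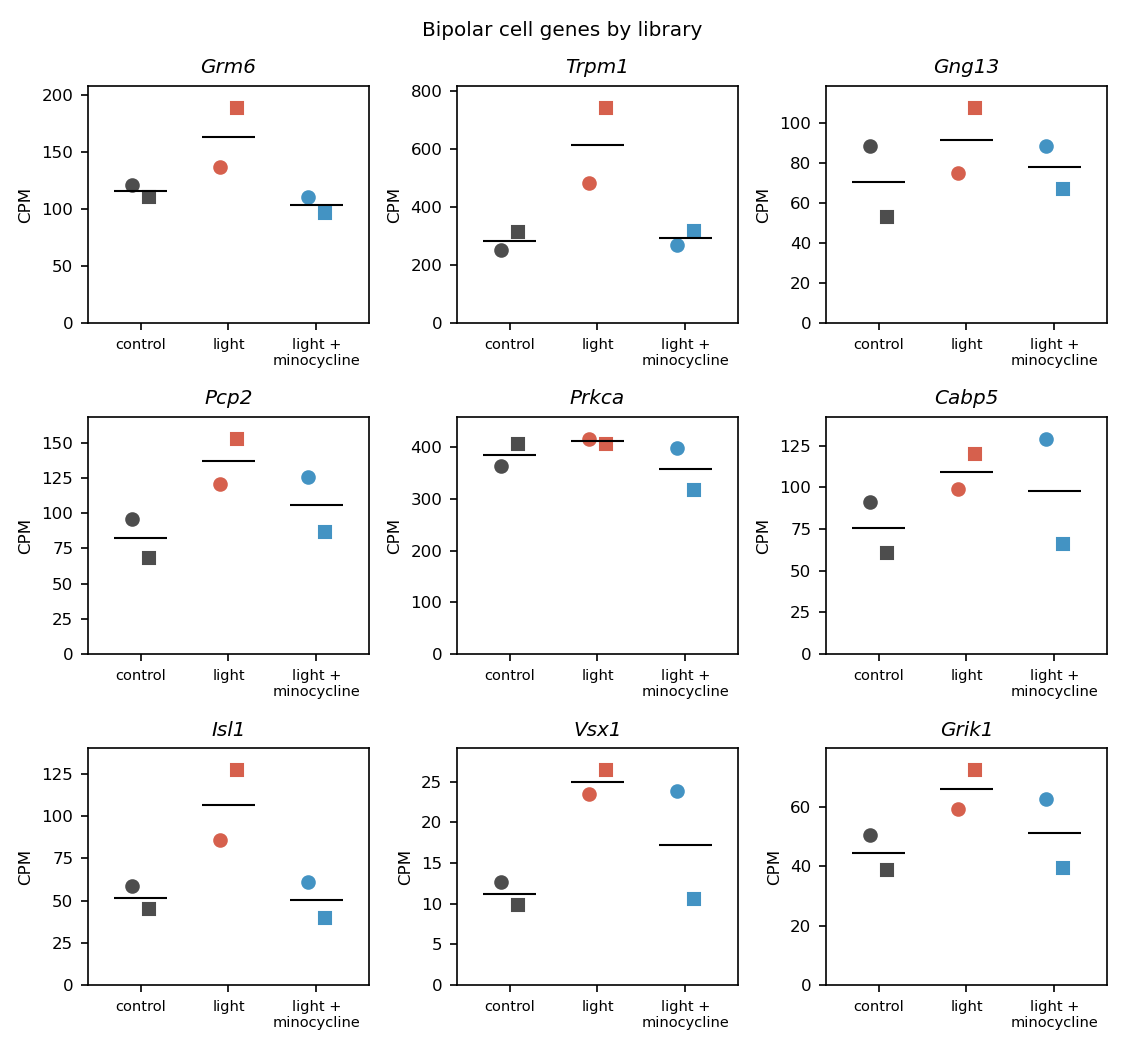
Level in CPM (vertical axes from 0) of the 9 bipolar cell genes in each library, by group on the horizontal axis, with circles for control 1, light-exposed 1 and minocycline A, squares for control 2, light-exposed 2 and minocycline B, and a line at the mean of each pair. Trpm1 reached 482 and 742 CPM in light-exposed retinas and did not exceed 317 CPM in the other 4 libraries, whereas the Prkca values stayed between 318 and 417 CPM.

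The change was uneven along the ON cascade. Grm6, the receptor (chromosome 11, 50850685 to 50866208, forward strand, GRCm38), was read at 121 and 111 CPM in control 1 and 2 and at 137 and 189 CPM in light-exposed 1 and 2. Both light-exposed values lay above the controls, by 0.50 ± 0.17 on the log2 scale, but the adjusted p of edgeR was 0.0862. Trpm1, the channel that the receptor controls (chromosome 7, 64153835 to 64269775, forward strand), was read at 252 and 313 CPM in control and at 482 and 742 CPM in light-exposed retinas. The lower light-exposed value was well above the higher control value, and Trpm1 rose 2.18-fold, by 1.12 ± 0.23 on the log2 scale (adjusted p of edgeR 0.0194).

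Trpm1 is also known from pigment cells, under the name melastatin. The 11 genes of the pigment cell list summed to 519.7 and 500.9 CPM in control, 573 and 721 CPM in light-exposed and 895 and 1896 CPM in minocycline-treated retinas, so that both light-exposed sums lay above both control sums. Most of the control sums came from Rlbp1, which Müller cells express as well. Without it, the list summed to 48.3 and 156 CPM in control, 62.7 and 94.6 CPM in light-exposed and 351 and 1475 CPM in minocycline-treated retinas (10 genes, of which Slc45a2 was at 0 in control 1). The light-exposed sums without Rlbp1 lay between the 2 control sums. One gene of this list, Mlph, a melanosome transport gene, rose from a mean of 0.67 to 4.69 CPM after light (log2 fold change 2.81, adjusted p of edgeR 0.0252). Both sums were highest in the minocycline-treated retinas, where Trpm1 was at 269 and 317 CPM. The part of pigment cells in the Trpm1 values was not tested. The gene also hosts the microRNA gene Mir211 in an intron, which shares no exon base with it.

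Gng13 encodes the gamma subunit of the G protein in ON bipolar cells (chromosome 17, 25717171 to 25719406, forward strand). It was read at 88.4 and 53.1 CPM in control and at 75.2 and 108 CPM in light-exposed retinas. The groups overlapped, and the log2 difference of 0.38 had a 95% confidence interval from -0.29 to 1.05 (adjusted p of edgeR 0.417). Pcp2, also called L7, binds Go in ON bipolar cells (chromosome 8, 3623371 to 3625545, reverse strand). Its values were 96.1 and 68.4 CPM in control and 120.5 and 153 CPM in light-exposed retinas, and the groups did not overlap. Pcp2 rose by 0.74 ± 0.19 on the log2 scale (adjusted p of edgeR 0.0359).

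Both Gng13 and Pcp2 overlap a gene on the other strand. Of the exon bases of Gng13, 51.6% also lie in exons of Chtf18, and 51.5% of those of Pcp2 lie in exons of Pet100. The library kit keeps the strand, but whether counting used it is not stated, so reads of these pairs may not have been separated. Chtf18 was at a mean of 6.76 CPM in control and 4.31 CPM in light-exposed retinas, and Pet100 at 20.2 and 22.7 CPM. Neither partner passed the test (adjusted p of edgeR 0.217 and 0.568). The partners' own counts do not measure the shared reads, and the part of these reads in the Gng13 and Pcp2 values was not tested. Grm6 shares 11% of its exon bases with a gene on the other strand, Gm12660, and Prkca shares 0.334% with Apoh.

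Prkca and Cabp5, genes of rod bipolar cells outside the cascade, did not pass. Prkca (chromosome 11, 107933387 to 108343928, reverse strand) was read at 363 and 406 CPM in control and at 417 and 407 CPM in light-exposed retinas. Light-exposed 2 exceeded control 2 only narrowly, and the log2 difference was 0.11 with a 95% confidence interval from -0.26 to 0.47 (adjusted p of edgeR 0.704), while a scaling to genes of amacrine, horizontal and ganglion cells turned it to -0.19. Cabp5, a calcium-binding protein of rod bipolar and some cone bipolar cells (chromosome 7, 13398132 to 13408887, forward strand), was at 91.1 and 60.7 CPM in control and at 98.9 and 119.9 CPM in light-exposed retinas. The groups did not overlap, but the controls lay 1.5-fold apart, and the log2 difference of 0.54 ± 0.20 did not pass (adjusted p of edgeR 0.108).

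Both transcription factors rose. Isl1, a LIM homeodomain factor of ON bipolar cells that amacrine and ganglion cells express as well (chromosome 13, 116298281 to 116309689, reverse strand), was read at 58.5 and 45.1 CPM in control and at 86.1 and 128 CPM in light-exposed retinas. The lower light-exposed value exceeded both controls, and the rise was 1.05 ± 0.21 on the log2 scale (adjusted p of edgeR 0.0196). Vsx1, a homeodomain factor of cone bipolar cells (chromosome 2, 150680702 to 150689360, reverse strand), was at 12.6 and 9.84 CPM in control and at 23.5 and 26.5 CPM in light-exposed retinas. It had the lowest counts of the 9 genes, yet the closest light-exposed pair after Prkca, and rose 2.24-fold, by 1.16 ± 0.21 on the log2 scale (adjusted p of edgeR 0.0132). The OFF side was represented by Grik1, a kainate receptor subunit of OFF cone bipolar cells (chromosome 16, 87895900 to 88290265, reverse strand). Its values of 50.3 and 38.7 CPM in control and 59.1 and 72.5 CPM in light-exposed retinas did not overlap, and the log2 difference of 0.57 ± 0.17 just missed the threshold (adjusted p of edgeR 0.0562).

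**Figure D2:**
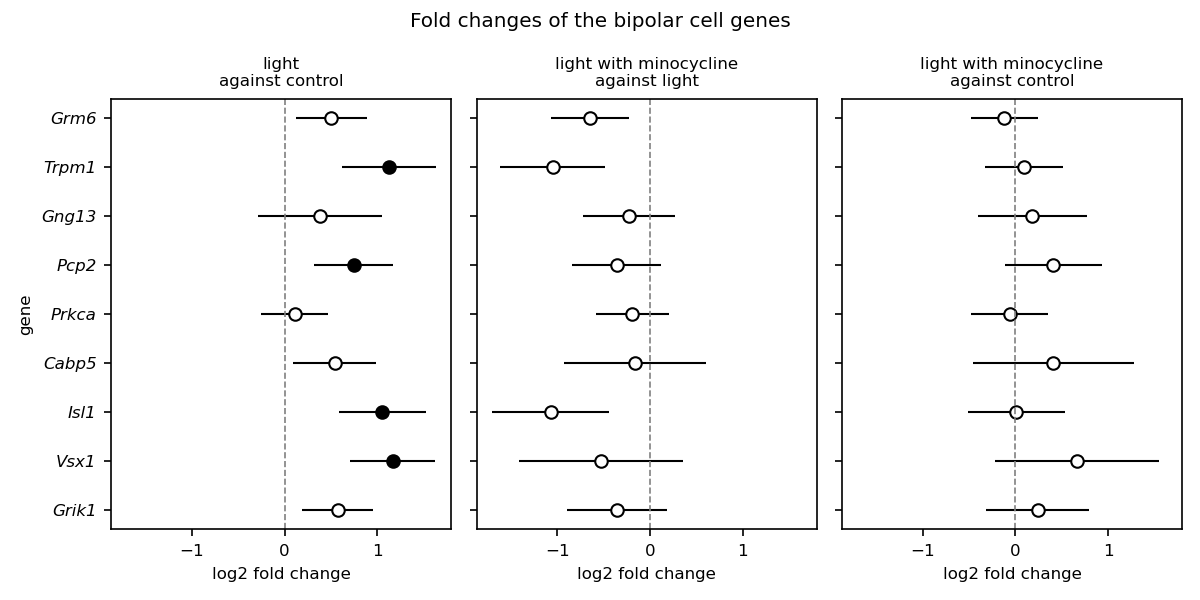
Log2 fold change (horizontal axes) of each bipolar cell gene (vertical axis) in the 3 comparisons, as points with 95% confidence intervals from edgeR, filled where the adjusted p was under 0.05. Trpm1, Pcp2, Isl1 and Vsx1 are filled for light against control, and no point is filled in the other comparisons.

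The number of genes that passed differed between scalings and fits, as did the number over all genes. With the total library size in place of TMM, 7 of the 9 passed, whereas a scaling to the amacrine, horizontal and ganglion cell genes left 1, Vsx1. These scalings shifted the median over all genes to 0.24 and to -0.28, and called 1930 and 721 of the 14349 genes higher, compared with 1079 with TMM. Higher genes made up 93.6% and 54.9% of all calls, compared with 66.4% with TMM. Relative to the median of all genes, the median of the 9 genes was 0.57 with TMM, 0.58 with the total library size and 0.59 with the inner neuron genes. A scaling moves all genes by nearly the same amount, so this difference could hardly change and does not test the scaling. One fit over all 6 libraries, which pools the spread over the groups, passed 1 of the 9, Trpm1, and called 820 genes higher in all. Libraries were left out within such a fit, in which the lone library of a group is assumed to vary like the other groups. With control 1, control 2 or light-exposed 2 left out, 0 of the 9 passed, in fits that called 2, 6 and 107 genes higher in all, and without light-exposed 1 Trpm1 and Isl1 passed, among 1159 genes called higher.

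Promoters of 3 genes that rose and of Cabp5 are shown for the sequence before their start sites, with the letters TAATCC, the core sequence bound by the homeodomain factors OTX2 and CRX, in capitals on either strand. Of the 9 genes, 8 had a RefSeq start site with a window of 250 bases before it, 13 windows in all, and Grik1 had none. TAATCC or its complement GGATTA occurred before a start site of 3 genes, Trpm1, Isl1 and Cabp5, and in 6.25% of all 32817 mouse windows of that length. TAATTA, a core sequence of other homeodomain factors, was searched in the same way and occurred in 1 member window, at an internal start site of Pcp2, and in 4.85% of all windows. The sequences are from RefSeq on GRCm38.p6, 5′ to 3′ on the strand of the gene, without bases that lie in an annotated exon.
Trpm1, chr7:64153585-64153834, forward strand, first base of the match 34 bases before the start site: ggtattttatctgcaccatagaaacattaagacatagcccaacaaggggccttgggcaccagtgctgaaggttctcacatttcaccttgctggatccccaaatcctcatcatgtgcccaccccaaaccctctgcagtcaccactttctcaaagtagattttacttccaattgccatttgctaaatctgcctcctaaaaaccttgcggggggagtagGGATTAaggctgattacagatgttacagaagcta
Isl1, chr13:116309690-116309938, reverse strand, first base of the match 177 bases before the start site: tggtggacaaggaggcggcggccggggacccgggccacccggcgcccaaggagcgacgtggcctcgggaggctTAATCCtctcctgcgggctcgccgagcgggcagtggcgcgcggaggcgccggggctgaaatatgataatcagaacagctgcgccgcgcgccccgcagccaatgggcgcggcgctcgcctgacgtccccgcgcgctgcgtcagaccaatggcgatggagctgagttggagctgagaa
Cabp5, chr7:13397905-13398131, forward strand, first bases of the matches 160 and 41 bases before the start site: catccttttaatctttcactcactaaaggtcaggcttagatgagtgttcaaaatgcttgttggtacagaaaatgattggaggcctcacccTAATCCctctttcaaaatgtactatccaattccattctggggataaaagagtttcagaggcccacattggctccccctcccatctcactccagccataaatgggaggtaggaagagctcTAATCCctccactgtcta
Pcp2, chr8:3625548-3625797, reverse strand, no match: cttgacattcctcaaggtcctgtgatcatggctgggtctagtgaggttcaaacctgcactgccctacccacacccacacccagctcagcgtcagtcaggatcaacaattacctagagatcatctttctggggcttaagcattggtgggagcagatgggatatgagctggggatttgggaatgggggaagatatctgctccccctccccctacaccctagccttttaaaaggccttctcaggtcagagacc
A match is a description of the letters. Trpm1 and Isl1 passed the test with a match and Pcp2 passed without one in any window. Vsx1 passed without one in its window too, but 223 of those 250 bases lie in annotated exons. Cabp5 held matches and did not pass. Trpm1 has a further RefSeq start site downstream, and the counts do not separate transcripts from the 2 starts.

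Because Prkca had the smallest range over the 6 libraries, it served as a reference within each library, and such a ratio does not depend on the scaling. Per Prkca count, 0.695 and 0.770 Trpm1 counts were read in control, 1.16 and 1.82 in light-exposed and 0.675 and 0.997 in minocycline-treated retinas. The light-exposed ratios exceeded the other 4. Against Grm6, Trpm1 moved in the same order, with 2.09 and 2.83 counts per Grm6 count in control, 3.51 and 3.93 in light-exposed and 2.44 and 3.29 in minocycline-treated retinas. The channel transcript thus stood higher relative to its receptor in both light-exposed libraries. Vsx1 per Grik1 count was 0.251 and 0.254 in control, 0.398 and 0.366 in light-exposed and 0.381 and 0.271 in minocycline-treated retinas. An exact permutation test of 2 against 2 libraries, two-sided, cannot give a p below 0.333, so these ratios are descriptions.

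**Figure D3:**
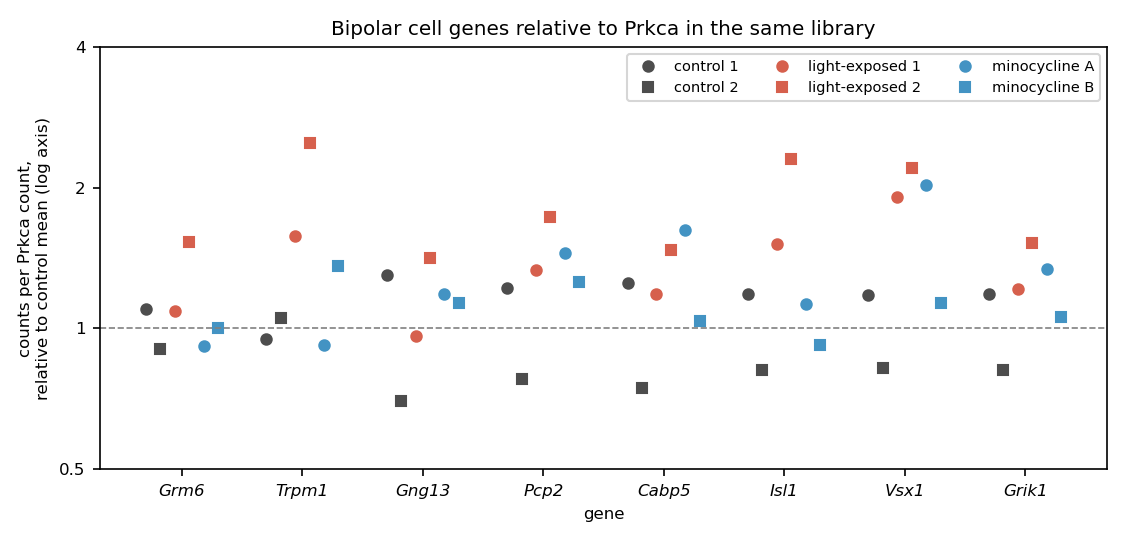
Counts of each gene per Prkca count in the same library, divided by the mean of the 2 control libraries (vertical axis, log scale), for 8 bipolar cell genes (horizontal axis). Both light-exposed libraries lie above all others for Trpm1 and Isl1, whereas for Gng13 the light-exposed libraries lie on either side of control 1.

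Levels between genes were compared per kilobase of exon (CPM per kb), with all annotated exons of a gene merged. This gave 14.746 kb from 23 transcripts for Trpm1 and 5.421 kb from 4 transcripts for Grm6. Which transcripts were expressed was not tested, so the order between genes depends on these lengths. In control retinas Gng13 was highest at a mean of 91.6 CPM per kb, followed by Pcp2 at 45.0 and Prkca at 42.8, whose ranges overlapped. Cabp5 (30.0 CPM per kb) came next, then Grm6 (21.3) and Trpm1 (19.2), which overlapped, and then Isl1 (13.1), Grik1 (6.62) and Vsx1 (2.96), which were separate from their neighbours. In light-exposed retinas Gng13 and Pcp2 still led, at 118 and 74.8 CPM per kb. Trpm1 had passed Grm6, at 41.5 against 30.1 CPM per kb, but from Prkca to Isl1 each gene overlapped the next in order. Minocycline-treated retinas had Trpm1 at 19.9 and Grm6 at 19.1 CPM per kb, again overlapping.

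The other genes of the bipolar pathways, 45 genes in 4 lists, were examined in the same fits. All were tested, 7 rose after light and 2 fell, against 7.52% and 3.8% of all genes, and 39 had a log2 fold change above 0. Their median was 0.44, and 0.16 with the inner neuron scaling, under which 0 of them rose. At an unadjusted p under 0.05, 20 were higher and 3 lower. In the ON cascade list, which holds further G protein subunits, regulators of G protein signalling and cell surface proteins, 1 of 10 rose and 2 fell. Gpr179, an orphan receptor that anchors the regulators of the cascade, was read at 164 and 179 CPM in control and at 226 and 308 CPM in light-exposed retinas, and rose by 0.65 ± 0.18 on the log2 scale (adjusted p of edgeR 0.039). The 2 genes that fell are also expressed by photoreceptors. Rgs9bp, the anchor of the RGS9 complex in rods, fell by 0.89, and Lrit3, a leucine-rich repeat protein needed to assemble the cascade at the synapse, fell by 0.65 (adjusted p of edgeR 0.0293 and 0.0313).

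Of 11 other transcription factors of bipolar cells, 2 rose and 0 fell. Neurod4, a basic helix-loop-helix factor, was at 126 and 94.95 CPM in control and at 199 and 236 CPM in light-exposed retinas, a rise of 0.98 on the log2 scale (adjusted p of edgeR 0.0132). Both light-exposed values lay above both controls.

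Of 15 receptors, calcium sensors and subtype genes, 3 rose, 0 fell and all 15 had positive values, with a median of 0.47. Lrtm1 rose by 0.85, Car10 by 0.72 and Cplx3, a complexin of ribbon synapses, by 0.66 on the log2 scale (adjusted p of edgeR 0.0162, 0.0284 and 0.0443). Of 9 other AMPA and kainate receptor genes, auxiliary subunits included, 1 rose and 0 fell. It was Gria4, an AMPA receptor subunit, at 62.5 and 56.0 CPM in control and 82.6 and 103 CPM in light-exposed retinas, with a log2 fold change of 0.66 (adjusted p of edgeR 0.0267). The median of this list was 0.45.

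The photoreceptor side of the same synapse differed in direction. Of 10 genes, 9 had a log2 fold change below 0, with a median of -0.43. In edgeR 2 fell and 0 rose, and DESeq2 called 6 lower. Cabp4, which tunes the presynaptic calcium channel, fell by 0.81, and Elfn1, which binds mGluR6 across the cleft of rod synapses, fell by 0.88 on the log2 scale (adjusted p of edgeR 0.0197 and 0.0141). All 12 rod genes had values below 0, with a median of -0.80, and 1 passed in edgeR, Nrl, the rod transcription factor, which fell by 0.96 (adjusted p of edgeR 0.0296), whereas DESeq2 called 11 of the 12 lower. Of 10 cone genes, 0 passed in edgeR or DESeq2 and 1 had an unadjusted p under 0.05, and their median of 0.25 became -0.01 with the inner neuron scaling.

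Other cells moved with the bipolar cell genes. Of 10 Müller cell genes, 4 rose in edgeR (median 0.80) and DESeq2 called 6 higher, and their summed level was 2208 to 3186 CPM in control and 3722 to 4242 CPM in light-exposed retinas. Of 11 genes of microglia and macrophages, 5 rose in edgeR and DESeq2 called all 11 higher, and their sum was 55.6 to 61.9 CPM in control and 388 to 1231 CPM in light-exposed retinas. Among the inner neurons, 0 of 10 amacrine, 0 of 9 ganglion and 0 of 6 horizontal cell genes passed in edgeR, DESeq2 called 0 as well, and 1 amacrine cell gene had an unadjusted p under 0.05. Their medians were 0.17, 0.27 and 0.38, and -0.04, 0.03 and 0.11 with the inner neuron scaling. That scaling is set from these same genes and so draws their values towards 0. The 9 bipolar cell genes together summed to 1106 to 1133 CPM in control and 1499 to 1946 CPM in light-exposed retinas. The part of the other cells in these values was not tested.

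**Figure D4:**
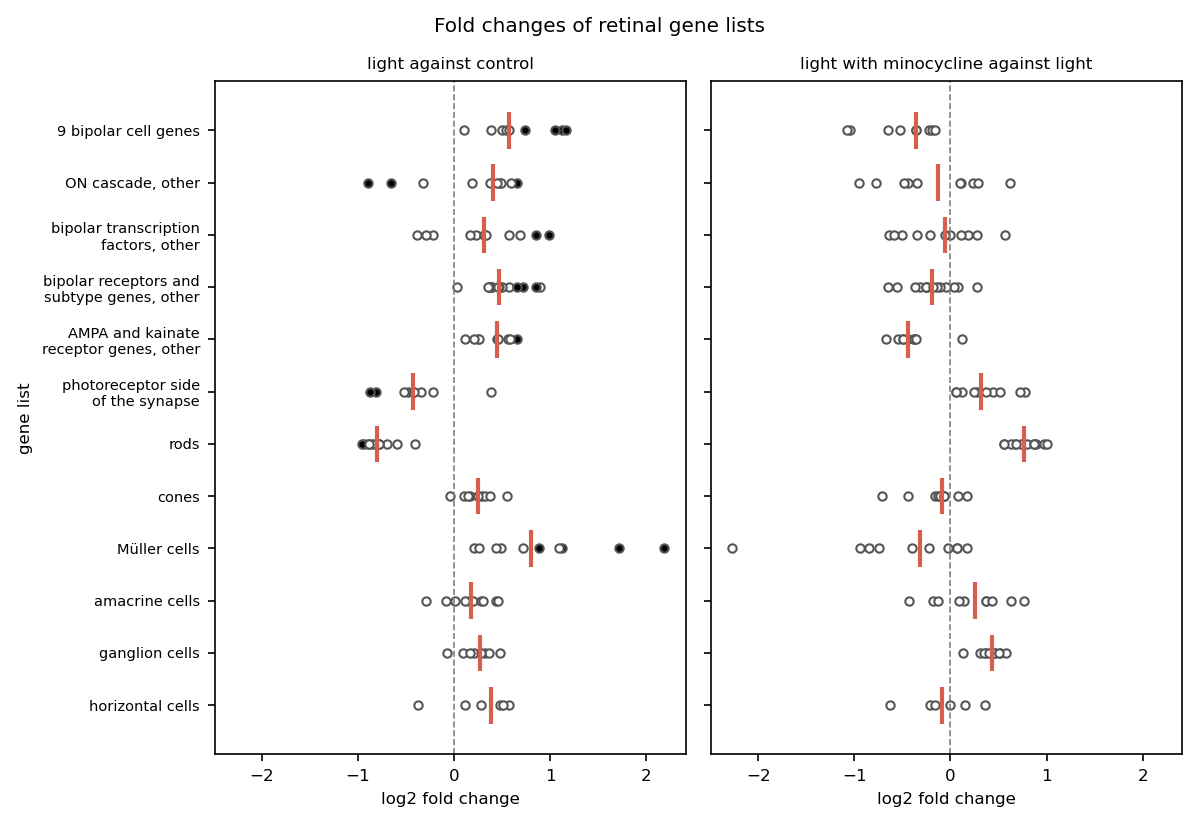
Log2 fold change (horizontal axes) of each tested gene in 12 gene lists (vertical axis) for light against control and for minocycline-treated against light-exposed retinas, as circles filled where the adjusted p of edgeR was under 0.05, with a bar at the median of each list. The median of the 9 bipolar cell genes is 0.57 and -0.36, and that of the rod genes is -0.80 and 0.77.

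Minocycline treatment was compared with light exposure alone to ask whether the drug altered the response to light. The 9 bipolar cell genes all had a log2 fold change below 0, compared with 49.2% of all 14750 genes tested, and their median was -0.36. That median depended on single libraries, at -0.72 without minocycline A, -0.08 without minocycline B, where Cabp5 was above 0, and -0.23 without light-exposed 2, where Gng13 was. In the test of edgeR 0 of the 9 passed in either direction, where 0.0136% of all genes were called higher and 0.0407% lower. At an unadjusted p under 0.05, 3 of the 9 were lower, against 12.1% of all genes, and DESeq2 called the same 3, Grm6, Trpm1 and Isl1, with 471 genes higher and 748 lower in all. In 4 of the 9 both minocycline values lay below both light-exposed values, which held for 28.1% of all genes. These libraries of light-exposed retinas are shared with the comparison of light with control, so the fold changes of the comparisons are not independent.

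The largest differences were those of Isl1 and Trpm1. Isl1 was read at 61.2 and 39.9 CPM in minocycline A and B, below the 86.1 and 128 CPM after light alone, a log2 difference of -1.07 ± 0.26 (adjusted p of edgeR 0.099, of DESeq2 0.00174). Trpm1 was at 269 and 317 CPM, below 482 and 742 CPM, a log2 difference of -1.05 ± 0.24 (adjusted p of edgeR 0.0845, of DESeq2 0.000179). Both minocycline values of Trpm1 lay within or just above the range of the controls.

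Grm6 was at 110.5 and 96.5 CPM with minocycline, a log2 difference of -0.65 ± 0.18 (adjusted p of edgeR 0.115, of DESeq2 0.0243). Prkca was at 399 and 318 CPM, also without overlap, with a log2 difference of -0.19 and a 95% confidence interval from -0.58 to 0.20 (adjusted p of edgeR 0.567). Both genes were lowest in minocycline B.

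The other 5 genes overlapped between the groups, and in each of them minocycline A lay within or above the light-exposed range and minocycline B below it. Vsx1 was at 23.9 CPM in minocycline A, within the light-exposed range, and at 10.6 CPM in minocycline B, within the control range. Cabp5 was at 129 and 66.1 CPM, Pcp2 at 125 and 86.7 CPM, Grik1 at 62.6 and 39.3 CPM and Gng13 at 88.6 and 67.3 CPM in minocycline A and B. The log2 differences of these 5 genes ranged from -0.53 for Vsx1 to -0.16 for Cabp5, and their adjusted p values in edgeR from 0.367 to 0.819. With a library left out, in fits that pool the spread over the groups and hold 1 library of the reduced group, Isl1 and Vsx1 passed without minocycline A, where 190 of 15086 genes were called lower. Grm6, Trpm1 and Isl1 passed without light-exposed 1, where 838 of 15247 genes were called lower, against 6 in the main comparison.

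Of the 45 other bipolar genes, 0 passed in edgeR with minocycline, while DESeq2 called 1 higher and 4 lower and an unadjusted p under 0.05 was reached by 1 higher and 9 lower genes. In all 32 had values below 0, and the median was -0.25. Over the 4 lists the medians were -0.13 for the ON cascade, -0.05 for the transcription factors, -0.19 for the receptors and subtype genes and -0.44 for the AMPA and kainate receptor genes. Among the lists of other cells, 2 genes of the corneal epithelium list, Dsp and Calml3, passed in edgeR and were higher with minocycline. The microglia and macrophage genes had values below 0 in 11 of 11, with a median of -3.54, and DESeq2 called 10 of them lower. DESeq2 also called 4 of 10 Müller cell genes lower, 8 of 11 pigment cell genes higher (median 3.42) and 6 of the 9 corneal epithelium genes with an adjusted p higher. The part of these cells in the values of the bipolar cell genes was not tested. All 12 rod genes had values above 0, with a median of 0.77, and DESeq2 called 11 of them higher.

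Minocycline-treated retinas were then set against control, to compare the retinas that had both light and the drug with untreated ones. In edgeR 0 of the 9 genes passed, where 0.162% of the 14181 genes tested were called higher and 0% lower. DESeq2 called 0 of the 9 as well, and 0 of the 9 had an unadjusted p under 0.05, against 5.39% of all genes higher and 1.62% lower. The median log2 fold change was 0.19, and -0.16 with the inner neuron scaling, -0.13 without minocycline A, 0.32 without minocycline B, 0.39 without control 1 and 0.02 without control 2. The change was above 0 in 7 of the 9 genes, or in 2 with that scaling, compared with 52.8% of all genes, and below 0 in Grm6 and Prkca. Of the 45 other genes 0 passed in either tool, and 1 had an unadjusted p under 0.05. Genes of other cells were examined in the same comparison. The pigment cell genes had values above 0 in 10 of 11, with a median of 3.97, the corneal epithelium genes in 9 of 9, with a median of 4.61, and the ganglion cell genes in 9 of 9, with a median of 0.71. In edgeR 2 corneal epithelium genes, Dsp and Calml3, 0 pigment cell genes and 0 ganglion cell genes passed. DESeq2 called 4 corneal epithelium, 3 pigment cell and 0 ganglion cell genes higher. The ganglion cell genes summed to 383 and 214 CPM in control 1 and 2 and to 636 and 307 CPM in minocycline A and B, so that minocycline B lay within the control range. The part of these cells in the values of the bipolar cell genes was not tested.

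The intervals show how far this comparison could resolve a change. Trpm1 differed from control by 0.10 on the log2 scale with a 95% confidence interval from -0.33 to 0.52, which does not reach the 1.12 seen after light alone. Isl1 differed by 0.01, with an interval from -0.51 to 0.53, and Prkca by -0.06, with an interval from -0.48 to 0.36. For Vsx1 the difference of 0.67 had an interval from -0.22 to 1.55, which holds both 0 and the 1.16 after light. Only Grm6 had both minocycline values below both controls, which held for 24.5% of all genes, at a log2 difference of -0.12 ± 0.16 (adjusted p of edgeR 0.82).

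The 2 libraries of a group differed in the same direction for most of the 9 genes. Control 1 exceeded control 2 in 7 of the 9, Trpm1 and Prkca being the exceptions, with a median log2 difference (second minus first) of -0.37. Light-exposed 2 exceeded light-exposed 1 in 8 of the 9, all but Prkca, with a median of 0.34, and minocycline A exceeded minocycline B in 8 of the 9, all but Trpm1, with a median of -0.53. Over all genes 48.8%, 50.7% and 48.5% were higher in the second library. Genes of other cells differed between the libraries of a group as well, some in the direction of the bipolar cell genes and some against it. The Müller cell genes summed to 3186 and 2208 CPM in control 1 and 2, 3722 and 4242 CPM in light-exposed 1 and 2 and 4057 and 3054 CPM in minocycline A and B, in the direction of the bipolar cell genes each time. The horizontal cell genes followed the same order, with 132 and 97.5 CPM, 140.4 and 155 CPM, and 162 and 109 CPM. The ganglion cell genes summed to 383 and 214 CPM in control 1 and 2 and to 636 and 307 CPM in minocycline A and B, and the amacrine cell genes to 629 and 528 CPM and to 873 and 498 CPM. In light-exposed 1 and 2 the amacrine cell sums were 658 and 715 CPM, with the bipolar cell genes, and the ganglion cell sums 356 and 318 CPM, against them. The microglia and macrophage genes differed more, with 388 and 1231 CPM in light-exposed 1 and 2 and 102 and 54.0 CPM in minocycline A and B, in the direction of the bipolar cell genes, and with 55.6 and 61.9 CPM in control 1 and 2, against it. The rod genes summed to 115296 and 90643 CPM in control 1 and 2, with the bipolar cell genes, but to 67428 and 47934 CPM in light-exposed 1 and 2 and 97128 and 105954 CPM in minocycline A and B, against them. The pigment cell sums without Rlbp1, given above, also ran against the bipolar cell genes in control and with minocycline. The corneal epithelium list summed to 434 and 479 CPM in minocycline A and B, against them as well. In control 1 and 2 it summed to 205 and 219 CPM, but most of this came from Pax6 (194 and 217 CPM), which the amacrine cell list holds too. Of its other genes, Krt5 (4.14 and 0.141 CPM) and Krt12 (2.57 and 0.422 CPM) ran with the bipolar cell genes in control, and Dsp (1.21 and 1.41 CPM) against them. The part of these cells in the differences was not tested.

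The likeness of the 9 genes was then described across the 6 libraries. Centred on its own mean log2 CPM, the mean profile of the 9 genes was -0.13 and -0.42 in control, 0.23 and 0.58 in light-exposed and 0.12 and -0.39 in minocycline-treated retinas. The distance of a gene from this profile was taken as the root mean square difference over the 6 libraries, in log2 units. Grik1 was nearest at 0.0820 and Trpm1 farthest at 0.359, with Prkca at 0.297, Vsx1 at 0.283, Isl1 at 0.237 and the other 4 genes between 0.111 and 0.201. Pcp2 and Grik1 were each other's nearest gene, at 0.103. Among 14563 genes outside the lists, those nearest to the profile were Tmtc2 (0.0367), Scarb2 (0.0369), Ppm1k (0.0457), Ndnf (0.0487) and Ccdc74a (0.0570). All of the points share the 6 libraries and their scaling.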

How the data were processed

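Retinal RNA of 6 libraries was sequenced as single reads from stranded mRNA libraries. The authors aligned the reads with STAR to mm10 (GRCm38), assigned them to genes and deposited counts per gene, which are whole numbers without normalization. The versions of STAR and DESeq2, the gene annotation and the use of the strand in counting are not given in the sources used here. No value column was left out (0 unused). The data statement speaks of normalized counts, but the values were not scaled.

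Each pair of groups was fitted in R 4.3.3 with edgeR 4.0.16 and limma 3.58.1: filterByExpr, TMM, robust quasi-likelihood F test and Benjamini-Hochberg adjustment over all genes tested. A gene passed at an adjusted p under 0.05. The test was tried on simulated data. A prior count of 2 was added for log2 CPM. Depth was 15205930 to 22856922 counts, and the 3 counts that a count of 0 allows correspond to 0.131 to 0.214 CPM per library. Intervals cover 95%. Coordinates and exon lengths came from GENCODE on GRCm38 and start sites from RefSeq on GRCm38.p6.

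The 9 genes and all lists were chosen with earlier results of these data known. All 9 are named, together with list genes that passed (at most 4 per list and comparison, by p) and the 5 genes nearest to the mean profile. Rlbp1, Slc45a2, Mir211, Pax6, Krt5, Krt12 and the antisense partners were named after their values were seen. Sept4 of the horizontal cell list was not analysed here. Of the list genes that passed, 1 is not reported here. Samples with the same replicate number did not deviate together (r = -0.01 over 14713 genes), so the number was not used as a block. Alternatives were DESeq2 1.42.0, other scalings and filters, a prior count of 0.5, non-robust estimation, stricter thresholds, the replicate block, one fit over all libraries, and leaving out each library.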

Additional observations from a re-analysis of the deposited data

How the results depend on the processing

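After light, the number of the 9 bipolar cell genes called higher in edgeR was 4, and DESeq2, DESeq2 size factors, either filter and non-robust estimation gave 4 to 6. It was 7 with the total library size, 1 with scaling to amacrine, horizontal and ganglion cell genes, 1 with all 6 libraries in one fit, 0 at an adjusted p under 0.01, 0 with the fold cutoff of 2, and 0 to 4 with a library left out. The replicate block gave 7, with 1668 of 14349 genes called higher against 1079 without it, although the numbers did not pair the libraries. For the minocycline comparisons, no paired analysis was possible because the minocycline columns share a header and cannot be tied to the replicate numbers of the labels. For minocycline-treated against light-exposed retinas, the number called lower was 0 in edgeR, 3 with DESeq2, 1 without a filter, 1 with all 6 libraries in one fit and 0 to 3 with a library left out. For minocycline-treated against control retinas it was 0 under every alternative. The cause of these differences was not tested. The medians of the 9 genes moved by less than the spread between replicates (SD 0.41 on the log2 scale) under the alternatives tried, although that of minocycline-treated against control retinas, 0.19, became -0.16 with the inner neuron scaling and -0.13 without minocycline A. That of minocycline-treated against light-exposed retinas, -0.36, ranged from -0.72 without minocycline A to -0.08 without minocycline B. Of the 45 other bipolar genes, 7 were higher after light, 16 with the total library size, 1 with all 6 libraries in one fit, 0 with the inner neuron scaling or a stricter threshold, and 0 to 7 with a library left out.

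Directions turned only in genes that had not passed. After light this was Prkca, at -0.19 with the inner neuron scaling. For minocycline-treated against light-exposed retinas it was Gng13 without light-exposed 2 (range -0.47 to 0.041 over libraries left out) and Cabp5 without minocycline B (-0.70 to 0.23). Against control, Isl1 was -0.021 with DESeq2, -0.017 with DESeq2 size factors, -0.016 without a filter and -0.036 with the 6 libraries fitted together. The inner neuron scaling gave -0.39 for Isl1, -0.23 for Trpm1, -0.15 for Gng13, -0.022 for Cabp5 and -0.16 for Grik1. With a library left out, values ranged from -0.33 to 0.23 for Isl1, -0.10 to 0.22 for Trpm1, -0.18 to 0.55 for Gng13, -0.15 to 0.76 for Cabp5, -0.034 to 1.08 for Vsx1, -0.13 to 0.49 for Grik1 and -0.45 to 0.046 for Prkca.

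Fits with a library left out covered the remaining 5 libraries together, so that the lone library of a group is assumed to vary like the other groups.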
